A study of Mus musculus with 22 samples.

Results

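The 8 genes described here are markers of the neurons and glia of the enteric nervous system, namely Elavl4, Uchl1, Ret, Chat, Nos1, Vip, S100b and Gfap. They were taken by gene symbol from the deposited count and TPM tables, and all 8 were found among the 46603 genes listed. All 8 also passed the filter on low counts that left 15763 genes for testing. The enteric nervous system runs through the gut wall as a myenteric plexus between the muscle layers and a submucosal plexus beneath the mucosa. Its neurons drive contraction, relaxation and secretion, and its glia ensheath the neurons and extend into the mucosa. Both descend from neural crest cells, which depend on the receptor RET to colonise the gut.

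RNA was sequenced from 22 samples of mouse intestinal tissue in 6 groups, in which a dietary fibre was crossed with exposure to PFOS (perfluorooctane sulfonate), a persistent fluorinated surfactant. All mice were male, wild-type C57BL/6, 7 weeks old at the start and fed for 7 weeks, and the labels name no transgene or deletion. Every irradiated diet held 8% fibre by weight and supplied 35% of its calories as fat, 20% as protein and 45% as carbohydrate. The fibre was pectin in the Pectin_PFOS group (n = 4) and the Pectin group (n = 4), inulin in the Inulin_PFOS group (n = 3) and the Inulin group (n = 3), and cellulose in the PFOS group (n = 4) and the Control group (n = 4). Pectin and inulin are fermented by gut bacteria, whereas cellulose is fermented poorly by the mouse. Groups with PFOS in their name drank it in their water, at a daily dose of 3 µg per kg body weight, and the other 3 groups were taken as unexposed from their titles. A general treatment entry in the labels names PFOS for every sample, Control included, and a second entry gives the group as in the titles, so the labels do not state in words that these 3 groups drank none. The labels state neither the gut segment, nor whether the muscle layers were kept, nor whether each library came from its own animal, so the p-values below measure the spread between these libraries, which may be technical.

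Libraries held 17613297 to 20261357 counts. All 15 further pan-neuronal genes and 10 of 12 further glial genes on the lists used here were tested, and neuronal transcripts were detected in every library at low levels. The 15 pan-neuronal genes summed to 7.16 to 47.9 TPM (transcripts per 1000000 transcripts, a level corrected for length), 12 smooth muscle markers to 444 to 6170 TPM and 10 epithelial markers to 16400 to 64100 TPM. Pectin_PFOS replicate 1 stood apart. It had the fewest detected genes, 12927 with at least 10 counts, the smallest TMM scaling factor, 0.749, and the lowest smooth muscle level, and calls lost without it are named below. The other 3 Pectin_PFOS libraries lay to the same side of the Pectin libraries: genes detected numbered 12927 to 14385 in Pectin_PFOS and 14403 to 14935 in Pectin, and mitochondrial genes took 2.85% to 3.51% of counts in Pectin_PFOS and 3.88% to 7.36% in Pectin. In bulk tissue, fewer cells of a type and less RNA per cell cannot be told apart, and neither can a change in nerve from a change in how much muscle or mucosa a sample held.

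RefSeq promoters (GRCm38.p6, 250 bases before to 50 after an annotated transcript start) were held for 7 of the 8 symbols, in 10 entries. Such a start need not be the outer end of the gene. The windows of Gfap and Nos1 and some of those of Elavl4 lie inside the gene coordinates given below. 4 are shown. Uchl1, S100b and Gfap are shown because their levels moved together across libraries, and Vip because it is the member most highly expressed per transcript length and moved apart from Nos1. Motif matches are in capitals. They were searched on both strands with TGACG, the core of a cAMP response element, with TATAAA, the TATA box, and with GGACAGC, the right part of an RE1 element, which binds the neuronal repressor REST.
Uchl1, chr5:66675871-66676170, plus strand: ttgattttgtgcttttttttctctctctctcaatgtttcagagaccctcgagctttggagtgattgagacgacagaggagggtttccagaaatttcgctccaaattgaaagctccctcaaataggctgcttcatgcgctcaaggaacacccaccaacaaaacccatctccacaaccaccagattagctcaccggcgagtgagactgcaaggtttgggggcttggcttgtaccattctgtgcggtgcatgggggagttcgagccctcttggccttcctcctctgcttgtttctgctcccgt
S100b, chr10:76253586-76253885, plus strand: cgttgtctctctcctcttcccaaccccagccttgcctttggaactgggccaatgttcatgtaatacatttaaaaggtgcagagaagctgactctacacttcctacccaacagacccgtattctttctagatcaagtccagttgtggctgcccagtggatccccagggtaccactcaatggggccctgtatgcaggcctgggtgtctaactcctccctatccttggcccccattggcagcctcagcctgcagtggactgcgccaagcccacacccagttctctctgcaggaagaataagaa
Gfap, chr11:102897151-102897450, minus strand: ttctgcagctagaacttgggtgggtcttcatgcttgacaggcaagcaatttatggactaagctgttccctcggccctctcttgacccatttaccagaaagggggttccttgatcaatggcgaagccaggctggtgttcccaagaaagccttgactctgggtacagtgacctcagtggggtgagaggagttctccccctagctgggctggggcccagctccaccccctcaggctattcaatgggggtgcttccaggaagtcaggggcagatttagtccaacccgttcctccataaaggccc
Vip, chr10:5638968-5639267, plus strand: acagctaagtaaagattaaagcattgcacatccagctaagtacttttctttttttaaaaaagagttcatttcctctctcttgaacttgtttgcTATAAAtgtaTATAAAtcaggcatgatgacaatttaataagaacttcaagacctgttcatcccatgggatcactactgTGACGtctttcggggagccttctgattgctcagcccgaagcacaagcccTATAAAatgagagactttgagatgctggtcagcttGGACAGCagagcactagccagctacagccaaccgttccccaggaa
Of these 4 windows, that of Vip held the marked motifs. With the start base counted as 0, TGACG lay from base −79 to base −75, TATAAA began at bases −157, −147 and −30, and GGACAGC lay from base 5 to base 11. TGACG on the opposite strand was also found in the Chat window, from base −171 to base −167, in the Nos1 window from base −130 to base −126 and in 3 of the 4 Elavl4 windows. Over 32851 mouse promoters of the same length, 20.8% held TGACG on either strand, 13.6% TATAAA and 6.56% GGACAGC. The full palindrome TGACGTCA, which contains TGACG, was in 1.79% of them. It was in none of the 10 windows, nor were TTCAGCACC, the left part of RE1 (0.371% of promoters), or ACAAAG, a SOX motif (18.7%). The windows of Uchl1, S100b and Gfap held 50.7%, 53.7% and 55.7% G and C, and that of Vip 41.7%, against a median of 52.7% over all promoters. These are matches of letters, and no binding was measured.

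Per transcript length, Vip was the member with the highest median level, 7.39 TPM with a range of 0.95 to 32.35 TPM over the 22 libraries, followed by Uchl1 with 6.86 TPM (2.09 to 21.24) and Ret with 3.97 TPM (2.21 to 7.03). Uchl1 ranked first among the 8 in 10 libraries, Vip in 9 and Ret in 3, and S100b came next after these 3 in all 22, with a median of 0.91 TPM. Elavl4, Gfap, Chat and Nos1 had medians of 0.345, 0.305, 0.215 and 0.195 TPM. Between libraries, the CPM of a member (counts per 1000000, scaled by the TMM method) spanned a ratio of highest to lowest of 25.8 for Vip, 25.2 for Gfap, 21.9 for Chat and 11.0 for S100b, and of 7.9 for Elavl4, 7.26 for Nos1, 7.01 for Uchl1 and 3.95 for Ret. Chat rested on 1 to 21 reads per library, Gfap on 1 to 37, Elavl4 on 4 to 43, S100b on 4 to 58 and Nos1 on 8 to 74. Counting error alone is therefore large for these genes. The lowest Gfap level, in Pectin_PFOS replicate 1, rested on 1 read. TPM and CPM did not run in step for every gene. The number of TPM per CPM varied 7.02-fold between libraries for Nos1, 6.21-fold for Elavl4, 5.31-fold for Gfap and 3.05-fold for Uchl1, and 1.75- to 1.92-fold for the other 4. Differences of single genes between groups are therefore given in CPM, on which the tests rest. Statements that all libraries of a group lay above or below another also hold for CPM, and overlaps in TPM are named beside them. TPM is used to compare genes and for the summed levels of gene lists.

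**Figure D1:**
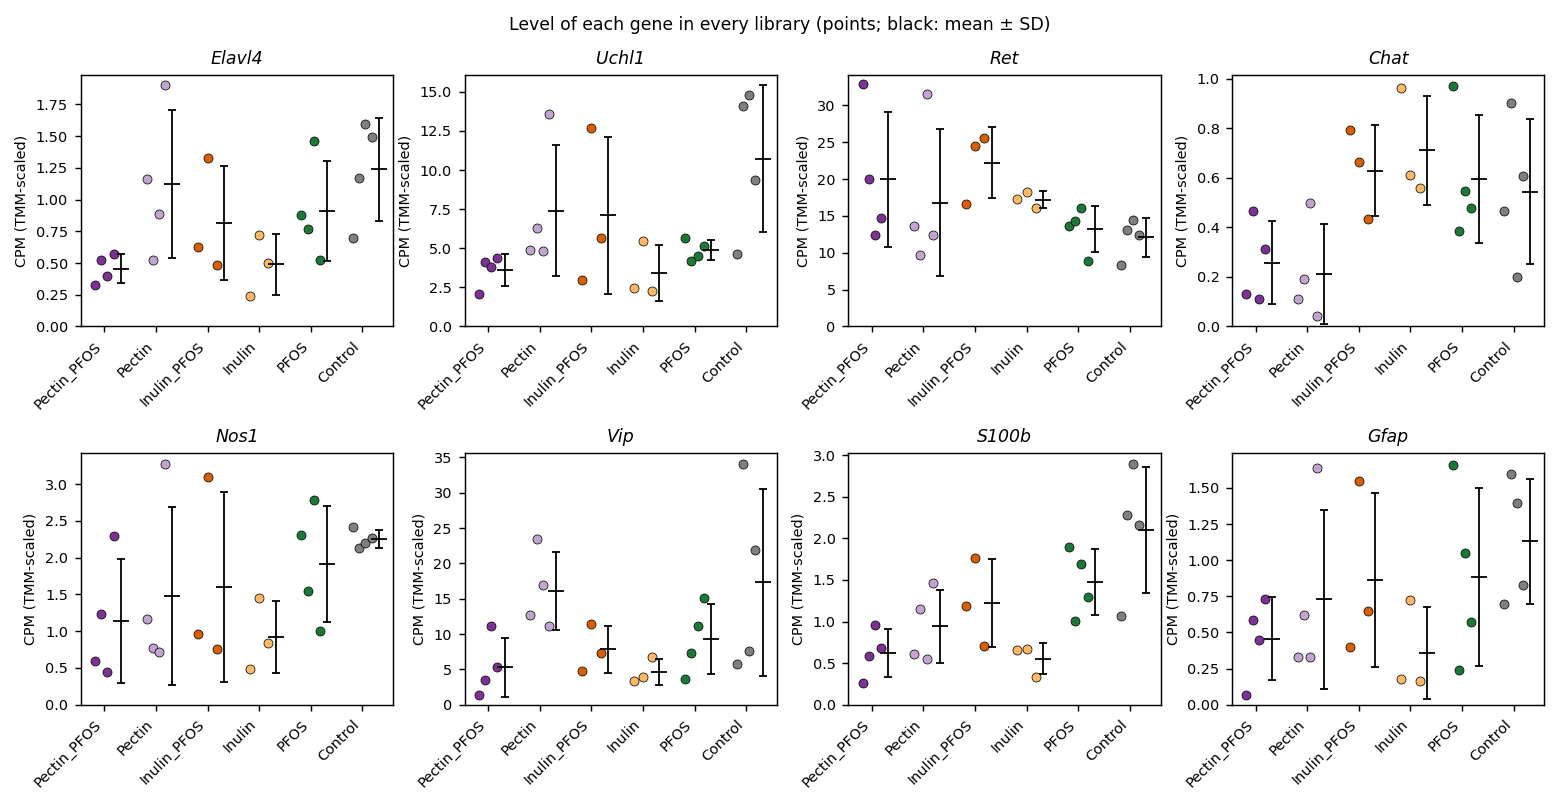
CPM (linear axis, TMM-scaled) of the 8 genes in each of the 22 libraries, 1 panel per gene, with the 6 groups along the horizontal axis, coloured points for libraries, and black marks with bars for each group's mean ± SD. Control has the highest group mean for Elavl4, Uchl1, Nos1, Vip, S100b and Gfap, and the ranges of groups next to each other in the order of means overlap for every gene.

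Differences were tested with edgeR's quasi-likelihood F test in 1 model of all 22 libraries. Each is a log2 fold change of the first group named over the second, with its standard error (SE) and a Benjamini-Hochberg adjusted p over the 15763 genes. A gene was called at an adjusted p under 0.05, and no member reached this in any of 12 comparisons.

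Elavl4 encodes HuD, an RNA-binding protein of postmitotic neurons (ENSMUSG00000028546, GRCm38 chromosome 4, 110203722 to 110351909, minus strand). Its CPM was 0.329, 0.527, 0.395 and 0.574 in the Pectin_PFOS libraries, against 1.17, 0.526, 0.889 and 1.90 in the Pectin libraries. Inulin_PFOS libraries had 0.623, 1.33 and 0.488 CPM, against 0.241, 0.723 and 0.502 CPM in Inulin libraries. PFOS libraries had 0.877, 0.771, 1.46 and 0.527 CPM, against 0.698, 1.17, 1.60 and 1.49 CPM in Control libraries. The 4 Pectin_PFOS libraries lay close together and low, and 2 of them passed the lowest Pectin library, so that those groups just overlapped. Means were 0.456 ± 0.114 CPM in Pectin_PFOS and 1.12 ± 0.583 CPM in Pectin (SD, n = 4 each), a log2 fold change of −1.28 ± 0.46 SE (adjusted p = 0.0532). In Inulin against Control the log2 fold change was −1.32 ± 0.50 SE (adjusted p = 0.157).

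Uchl1 encodes the deubiquitinating enzyme known as PGP9.5, one of the most abundant proteins of neurons and a common stain for enteric nerve (ENSMUSG00000029223, chromosome 5, 66676091 to 66687234, plus strand). In Pectin_PFOS libraries it reached 2.11, 4.10, 3.78 and 4.38 CPM, against 4.88, 6.27, 4.83 and 13.6 CPM in Pectin libraries. The Inulin_PFOS libraries held 2.95, 12.7 and 5.69 CPM, against 2.47, 5.45 and 2.29 CPM in the Inulin libraries. With cellulose, PFOS libraries held 5.63, 4.19, 4.52 and 5.18 CPM, against 4.65, 14.1, 14.8 and 9.36 CPM in Control libraries. In CPM every Pectin_PFOS library lay below every Pectin library, while 1 Control library lay within the range of the PFOS group. In TPM these pectin groups overlapped, at 2.09 to 5.75 TPM in Pectin_PFOS and 4.46 to 16.42 TPM in Pectin. The Pectin_PFOS mean was 3.59 ± 1.02 CPM and the Pectin mean 7.39 ± 4.18 CPM (SD, n = 4 each), and the log2 fold change was −1.04 ± 0.44 SE with a 95% interval of −1.91 to −0.17 (adjusted p = 0.0937). For PFOS against Control it was −1.13 ± 0.44 SE (adjusted p = 0.822), and for Inulin against Control −1.65 ± 0.49 SE (adjusted p = 0.0949). The antisense gene Uchl1os shares 295 exon bases with Uchl1 and was at 0 counts in every library.

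Beside these 2, 15 further pan-neuronal genes were followed, among them Tubb3 (a neuronal tubulin), Stmn2 and Stmn3 (tubulin-binding stathmins) and Snap25 (a synaptic fusion protein). All 15 had negative log2 fold changes in Pectin_PFOS against Pectin, with a median of −0.67 against −0.06 over all genes tested, and 1, Stmn3, fell, at 1.13 ± 0.260 CPM in Pectin_PFOS and 2.71 ± 0.644 CPM in Pectin (SD, n = 4 each; log2 fold change −1.26 ± 0.44 SE, adjusted p = 0.0469), beside 20.8% of all genes called. The Stmn3 call was lost in 13 of 22 fits that each left out 1 library, among them every fit without a Pectin_PFOS or Pectin library (adjusted p up to 0.123). In Pectin_PFOS against PFOS all 15 were again negative, with a median of −0.69, and Map2, a dendritic microtubule protein, and Ncam1, a neural adhesion molecule, fell, by 1.29 and 1.56 on the log2 scale (adjusted p = 0.0218 and 0.0365), beside 16.0% of all genes called. The Map2 call was lost without PFOS replicates 1 or 3 or Pectin_PFOS replicates 1 or 3 (adjusted p up to 0.0704), and that of Ncam1 without PFOS replicates 1, 2 or 3 or Pectin_PFOS replicates 1 or 2 (up to 0.111). In Inulin against Control 14 of the 15 were negative, with a median of −1.29. None was called by edgeR, 8 had an unadjusted p under 0.05, 5 were called lower by DESeq2, and limma on log2(TPM + 1) called 0 of the 8 it could test. The Stmn3 mean was 1.27 ± 0.499 CPM in the 3 Inulin libraries and 5.80 ± 2.88 CPM in the 4 Control libraries (SD), with an adjusted p of 0.0716.

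Ret encodes the receptor tyrosine kinase for GDNF, neurturin, artemin and persephin (ENSMUSG00000030110, chromosome 6, 118151745 to 118197718, minus strand). It had 32.9, 20.0, 12.3 and 14.8 CPM in Pectin_PFOS libraries, against 13.6, 9.66, 31.6 and 12.4 CPM in Pectin libraries. Values were 16.7, 24.5 and 25.5 CPM in Inulin_PFOS, against 17.3, 18.3 and 16.0 CPM in Inulin. They were 13.7, 14.3, 16.0 and 8.86 CPM in PFOS, against 8.32, 13.1, 14.5 and 12.4 CPM in Control. Ret was the member whose order of groups ran opposite to most, with the highest mean in Inulin_PFOS, 22.2 ± 4.84 CPM (SD, n = 3), and the lowest in Control, 12.1 ± 2.65 CPM (SD, n = 4). In CPM all 3 Inulin libraries lay above all 4 Control libraries (log2 fold change 0.51 ± 0.35 SE, adjusted p = 0.41). All 3 Inulin_PFOS libraries lay above all 4 PFOS libraries (0.75 ± 0.35 SE, adjusted p = 0.229). In TPM Inulin (3.7 to 4.9) overlapped Control (2.45 to 3.91), and Inulin_PFOS (3.48 to 5.71) overlapped PFOS (2.42 to 5.06). Within the pectin groups Ret spread widely, with single libraries of 32.9 CPM in Pectin_PFOS and 31.6 CPM in Pectin well above the other 3 of their group.

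The list around RET held 9 genes, all tested, among them the ligands Gdnf and Nrtn (neurturin), the co-receptors Gfra1 and Gfra2, the endothelin pair Edn3 and Ednrb that acts beside RET in gut colonisation, and Zeb2, a transcription factor of the neural crest. In Pectin_PFOS against PFOS 1 of the 9 rose and 3 fell, beside 16.0% of all genes called, with a median log2 fold change of −0.93 against −0.03 over all genes. Edn3 rose, at 123 ± 24.1 CPM in Pectin_PFOS and 48.4 ± 11.8 CPM in PFOS (log2 fold change 1.35 ± 0.26 SE, adjusted p = 0.00349). Gdnf fell, at 0.476 ± 0.288 CPM in Pectin_PFOS and 1.65 ± 0.458 CPM in PFOS (−1.76 ± 0.46 SE, adjusted p = 0.0152). Zeb2 fell as well, at 3.05 ± 1.42 CPM in Pectin_PFOS and 11.8 ± 1.91 CPM in PFOS (−1.94 ± 0.45 SE, adjusted p = 0.00824). These 3 calls were kept in all 22 fits that left out a library, whereas Gfra1, which also fell (−1.91 ± 0.53 SE, adjusted p = 0.0214), was not called without Pectin_PFOS replicates 1 or 2 (up to 0.0671) and stood at −2.50 without Pectin_PFOS replicate 4. In Pectin_PFOS against Pectin the counts were 1 higher, Edn3, and 3 lower, Zeb2, Ednrb and Nrtn, beside 20.8% of all genes called, and 0 in either direction without Pectin_PFOS replicate 1. Ednrb was higher in Pectin than in Inulin, at 10.6 ± 1.36 CPM and 2.87 ± 1.87 CPM (1.89 ± 0.58 SE, adjusted p = 0.0329), and Edn3 was higher in Inulin_PFOS than in PFOS, at 112 ± 31.4 CPM and 48.4 ± 11.8 CPM (1.21 ± 0.28 SE, adjusted p = 0.023). Each of these calls was lost in 5 of the 22 fits, for Ednrb without Inulin replicates 1 or 2 or Pectin replicates 1, 2 or 4 (adjusted p up to 0.178; log2 fold change 2.55 without Inulin replicate 3) and for Edn3 without PFOS replicates 1, 2 or 3 or Inulin_PFOS replicates 1 or 2 (up to 0.13).

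Chat encodes choline acetyltransferase, which makes acetylcholine, the main excitatory transmitter of enteric neurons, and is also known from tuft cells of the epithelium (ENSMUSG00000021919, chromosome 14, 32408203 to 32465909, minus strand). Pectin_PFOS libraries had 0.132, 0.468, 0.113 and 0.313 CPM of Chat, against 0.111, 0.191, 0.500 and 0.0442 CPM in Pectin libraries. Inulin_PFOS libraries reached 0.793, 0.663 and 0.433 CPM, against 0.963, 0.612 and 0.558 CPM in Inulin libraries. In PFOS libraries it was at 0.969, 0.385, 0.547 and 0.479 CPM, against 0.465, 0.903, 0.200 and 0.609 CPM in Control libraries. Both pectin groups were low, and every Pectin library lay below every Inulin library. The nearest of these libraries held 9 reads in Pectin and 10 in Inulin. The Pectin mean was 0.212 ± 0.201 CPM (n = 4) and the Inulin mean 0.711 ± 0.220 CPM (SD, n = 3), and the log2 fold change of −1.75 ± 0.62 SE came with an adjusted p of 0.0549. Slc18a3, the vesicular acetylcholine transporter, lies within the Chat locus on the same strand but shares no exon bases with it.

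Nos1 encodes neuronal nitric oxide synthase, the source of nitric oxide in inhibitory motor neurons (ENSMUSG00000029361, chromosome 5, 117781032 to 117958840, plus strand). Its values were 0.593, 1.23, 0.451 and 2.30 CPM in Pectin_PFOS libraries, against 1.17, 0.765, 0.722 and 3.27 CPM in Pectin libraries. They were 0.963, 3.09 and 0.759 CPM in Inulin_PFOS libraries, against 0.482, 1.45 and 0.836 CPM in Inulin libraries. PFOS libraries ran at 2.31, 1.54, 2.78 and 1.01 CPM, against 2.42, 2.12, 2.20 and 2.27 CPM in Control libraries. Control was the tightest group, at 2.25 ± 0.125 CPM (SD, n = 4), and all 3 Inulin libraries, at 0.921 ± 0.488 CPM, lay below it. In TPM these groups overlapped, at 0.1 to 0.29 TPM in Inulin and 0.21 to 0.45 TPM in Control. The log2 fold change of Inulin over Control was −1.28 ± 0.62 SE (adjusted p = 0.247). An antisense transcript, Gm26995, shares 268 exon bases with Nos1 and had 0 counts in every library.

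Vip encodes vasoactive intestinal peptide, which relaxes gut muscle and drives epithelial secretion (ENSMUSG00000019772, chromosome 10, 5639218 to 5647614, plus strand), and its promoter is the one of the 4 printed above that holds TGACG and TATAAA. Pectin_PFOS libraries had 1.32, 3.45, 11.1 and 5.32 CPM of Vip, against 12.8, 23.5, 16.9 and 11.2 CPM in Pectin libraries. Inulin_PFOS libraries gave 4.82, 11.4 and 7.37 CPM, against 3.31, 3.95 and 6.69 CPM in Inulin libraries. PFOS libraries gave 3.60, 7.32, 11.1 and 15.1 CPM, against 5.77, 34.0, 7.54 and 21.9 CPM in Control libraries. In CPM each Pectin_PFOS library lay below each Pectin library, and each Pectin library lay above each Inulin library. Control spread from 5.77 to 34.0 CPM. In TPM Pectin_PFOS (0.95 to 8.93) overlapped Pectin (8.34 to 18.56), while Pectin still lay above Inulin (3.12 to 5.29). The Pectin_PFOS mean was 5.30 ± 4.20 CPM and the Pectin mean 16.1 ± 5.49 CPM (SD, n = 4 each), a log2 fold change of −1.60 ± 0.59 SE with a 95% interval of −2.74 to −0.45 (adjusted p = 0.0572). The log2 fold change of Pectin over Inulin, at 4.65 ± 1.80 CPM (SD, n = 3), was 1.79 ± 0.65 SE (adjusted p = 0.0623).

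Among 15 further transmitter and neuropeptide genes, 13 were tested. In Pectin_PFOS against Pectin 3 fell and none rose, a share near the 20.8% of all genes called, with a median log2 fold change of −1.03: Cartpt (a neuropeptide precursor), Calcb (a calcitonin gene-related peptide of sensory neurons) and Nmu (neuromedin U). Calcb was at 0.285 ± 0.119 CPM in Pectin_PFOS and 0.949 ± 0.233 CPM in Pectin (−1.70 ± 0.49 SE, adjusted p = 0.0216). Without Pectin_PFOS replicate 1 the count was 1, as it was without Pectin replicate 1, and all 3 calls were lost in some fit. In Pectin_PFOS against PFOS 1 of the 13, Tac1, rose and 1 fell, beside 16.0% of all genes called. There 10 values were negative and 3 positive, with a median of −0.68. In Inulin_PFOS against PFOS Tac1 was the 1 that rose and 0 fell, beside 2.64% of all genes called, with a median of 0.42. Tac1, which encodes substance P and is made both by enteric neurons and by enterochromaffin cells of the epithelium, thus rose in both fermentable-fibre groups with PFOS against PFOS. It had 22.5 ± 22.8 CPM in Pectin_PFOS (n = 4), 39.0 ± 6.03 CPM in Inulin_PFOS (n = 3) and 2.87 ± 0.836 CPM in PFOS (SD, n = 4). The log2 fold change was 2.97 ± 0.67 SE for Pectin_PFOS against PFOS (adjusted p = 0.00824) and 3.76 ± 0.71 SE for Inulin_PFOS against PFOS (adjusted p = 0.0092), and these comparisons share the PFOS libraries. The first value was 1.956 without Pectin_PFOS replicate 2, still called, and the second call was lost without PFOS replicate 2 (adjusted p = 0.0552). In Pectin against Inulin 2 genes rose and none fell, a share no larger than the 17.5% of all genes called. Slc5a7, the high-affinity choline transporter that feeds CHAT in cholinergic neurons, was at 0.654 ± 0.277 CPM in Pectin and 0.134 ± 0.0685 CPM in Inulin (2.24 ± 0.63 SE, adjusted p = 0.0224), the opposite sign to Chat. Penk, the enkephalin precursor, was at 5.62 ± 0.721 CPM in Pectin and 2.02 ± 0.652 CPM in Inulin (1.47 ± 0.45 SE, adjusted p = 0.0304). The call of Slc5a7 was lost without any 1 of the 3 Inulin libraries or Pectin replicate 4 (adjusted p up to 0.0889), and that of Penk without any 1 of the 3 Inulin libraries or Pectin replicates 2 or 4 (up to 0.113).

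On the receiving side, 10 receptors for VIP and acetylcholine and targets of nitric oxide were all tested. In Pectin_PFOS against PFOS 1 rose and 4 fell, beside 16.0% of all genes called. Chrm3, the M3 muscarinic receptor, was the 1 that rose (log2 fold change 0.99, adjusted p = 0.0354), and its call was lost without Pectin_PFOS replicates 1 or 2 or any 1 of the 4 PFOS libraries (adjusted p up to 0.115). Chrm2, the M2 muscarinic receptor of smooth muscle, was at 8.50 ± 2.83 CPM in Pectin_PFOS and 30.7 ± 7.27 CPM in PFOS (−1.85 ± 0.36 SE, adjusted p = 0.00393). Gucy1a3, a subunit of the guanylate cyclase that nitric oxide activates, was at 4.95 ± 1.60 CPM in Pectin_PFOS and 16.9 ± 4.04 CPM in PFOS (−1.77 ± 0.34 SE, adjusted p = 0.00326). Both calls were kept in all 22 fits that left out a library, and the other 2 that fell, Gucy1b3 (the partner subunit) and Prkg1 (the kinase downstream), were not called without Pectin_PFOS replicate 1. In Pectin_PFOS against Pectin, Gucy1a3, Gucy1b3 and Chrm2 fell and 2 genes rose, beside 20.8% of all genes called. These were Chrm3 (0.94, adjusted p = 0.0371) and Vipr1, a VIP receptor that the epithelium expresses, at 158 ± 42.1 CPM in Pectin_PFOS and 90.7 ± 30.2 CPM in Pectin (0.80 ± 0.25 SE, adjusted p = 0.0295). The 3 lower calls and that of Chrm3 were lost without Pectin_PFOS replicate 1, and that of Vipr1 without Pectin replicates 1, 2 or 3 or Pectin_PFOS replicates 3 or 4 (adjusted p up to 0.0988).

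S100b encodes a calcium-binding protein of enteric glia (ENSMUSG00000033208, chromosome 10, 76253853 to 76261159, plus strand). It was at 0.263, 0.585, 0.958 and 0.678 CPM in Pectin_PFOS libraries, against 0.610, 1.15, 0.556 and 1.46 CPM in Pectin libraries. Inulin_PFOS libraries stood at 1.19, 1.77 and 0.704 CPM, against 0.662, 0.667 and 0.335 CPM in Inulin libraries. PFOS libraries stood at 1.89, 1.01, 1.69 and 1.29 CPM, against 1.07, 2.28, 2.90 and 2.16 CPM in Control libraries. In CPM all 3 Inulin libraries lay below all 4 Control libraries and below all 3 Inulin_PFOS libraries. All 4 Pectin_PFOS libraries lay below all 4 PFOS libraries. The nearest Inulin and Inulin_PFOS libraries held 12 and 13 reads. In TPM Inulin (0.27 to 0.64) overlapped Inulin_PFOS (0.54 to 1.47), while Inulin stayed below Control and Pectin_PFOS below PFOS. The Inulin mean was 0.555 ± 0.191 CPM (n = 3) and the Control mean 2.10 ± 0.760 CPM (SD, n = 4), a log2 fold change of −1.91 ± 0.48 SE with a 95% interval of −2.85 to −0.97 (adjusted p = 0.076). For Pectin_PFOS, at 0.621 ± 0.286 CPM, against PFOS, at 1.47 ± 0.395 CPM, it was −1.22 ± 0.43 SE (adjusted p = 0.0552). For Inulin_PFOS against Inulin it was 1.13 ± 0.50 SE (adjusted p = 0.236).

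Gfap encodes the intermediate filament of astrocytes and of a share of enteric glia (ENSMUSG00000020932, chromosome 11, 102887336 to 102900912, minus strand). Pectin_PFOS libraries had 0.0659, 0.585, 0.451 and 0.731 CPM of Gfap, against 0.333, 0.622, 0.333 and 1.64 CPM in Pectin libraries. Inulin_PFOS libraries lay at 0.397, 1.55 and 0.650 CPM, against 0.181, 0.723 and 0.167 CPM in Inulin libraries. PFOS libraries lay at 1.66, 0.241, 1.05 and 0.575 CPM, against 0.698, 1.59, 1.40 and 0.830 CPM in Control libraries. Every pair of groups compared overlapped, and Gfap had the largest biological coefficient of variation of the 8 in the fit, 59.5%, against 32.6% for Ret, the smallest. Inulin over Control gave a log2 fold change of −1.63 ± 0.76 SE (adjusted p = 0.231).

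Of 12 further glial genes 10 were tested, and their calls ran in both directions. In Pectin_PFOS against PFOS 4 fell and 1 rose, beside 16.0% of all genes called, with a median log2 fold change of −1.53. Cdh19, a cadherin of glial and Schwann cell precursors, was at 0.502 ± 0.371 CPM in Pectin_PFOS and 3.19 ± 0.561 CPM in PFOS (−2.63 ± 0.50 SE, adjusted p = 0.00326). Gpm6b, a proteolipid protein of glia and neurons, was at 1.31 ± 0.715 CPM in Pectin_PFOS and 6.04 ± 1.42 CPM in PFOS (−2.19 ± 0.44 SE, adjusted p = 0.0041). These 2 were called in all 22 fits that left out a library, and without Pectin_PFOS replicate 1 they were the 2 lower calls left, with 0 higher. Entpd2, the ectonucleotidase of enteric glia, rose in Pectin_PFOS against Pectin, at 55.9 ± 13.6 CPM in Pectin_PFOS and 25.0 ± 3.21 CPM in Pectin (1.16 ± 0.18 SE, adjusted p = 0.00216), and its call was kept in all 22 fits. It fell in Pectin against Inulin, at 25.0 ± 3.21 CPM in Pectin and 44.7 ± 8.48 CPM in Inulin (−0.84 ± 0.19 SE, adjusted p = 0.00805), a call lost without Inulin replicate 1 (adjusted p = 0.0561). In Pectin_PFOS against Pectin the glial list had 2 higher and 4 lower calls, beside 20.8% of all genes called, with a median of −0.60, and 1 higher and 0 lower without Pectin_PFOS replicate 1. Epithelial cells also express several of these glial genes, such as Erbb3, and the list summed to 121 to 432 TPM, more than the 15 pan-neuronal genes.

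Taken comparison by comparison, the 8 members shared a sign more often than they passed the test. In Inulin against Control 6 of 8 had negative log2 fold changes, all but Ret and Chat, with a median of −1.48 against −0.02 over all genes tested. None was called by edgeR, beside 0.0% of all genes. 5 had an unadjusted p under 0.05, as had 3257 of the 15763 genes. DESeq2 called 3 lower, Uchl1, Vip and S100b. Limma on log2(TPM + 1) called 0, both with a filter on low TPM, which kept 4 members (Ret, S100b, Uchl1 and Vip), and without one, and its counts below are the same both ways. In CPM Nos1 and S100b were lower in every Inulin library than in any Control library, as were 6.12% of all genes. Ret was higher in every Inulin library, as were 3.7% of all genes. In TPM only S100b of these stayed apart. In the smooth muscle list 12 of 12 genes were negative in this comparison, with a median of −1.15 and summed levels of 642 to 2550 TPM in Inulin and 1560 to 6170 TPM in Control, and in the fibroblast list 10 of 10, with a median of −1.35. No marker of either list was at 0 in all libraries, and their part in the result was not tested.

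In Pectin_PFOS against Pectin 6 of 8 members were negative, with a median of −0.63 against −0.06 over all genes. 0 of 8 were called by edgeR, beside 20.8% of all genes. 3 had an unadjusted p under 0.05, DESeq2 called 2 lower, Elavl4 and Vip, and limma on log2(TPM + 1) called 0. In CPM Uchl1 and Vip were lower in every Pectin_PFOS library than in any Pectin library, as were 13.6% of all genes. These 2 of 8 are not far from the background, and in TPM neither stayed apart. The smooth muscle list had 12 of 12 negative values (median −0.98; 444 to 1330 TPM in Pectin_PFOS and 1020 to 2740 TPM in Pectin), the fibroblast list 6 lower calls of 10 (median −1.33; 246 to 310 TPM in Pectin_PFOS and 374 to 499 TPM in Pectin) and the epithelial list 2 higher calls of 10 (median 0.52). The epithelial list summed to 26000 to 34400 TPM in Pectin_PFOS and 16400 to 58500 TPM in Pectin, and its median was 0.29 with library totals alone. All 6 adipocyte markers were negative, 1 of them called, with the lowest median of these lists, −1.92, and summed levels of 54.7 to 163 TPM in Pectin_PFOS and 32.4 to 498 TPM in Pectin. Without Pectin_PFOS replicate 1 fibroblast markers kept 4 lower calls. Their part in the result was not tested.

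In Pectin against Inulin 6 of 8 members were positive (7 with scaling by library totals alone, where Ret changed sign), with a median of 0.90 against 0.05 over all genes. edgeR called none, beside 17.5% of all genes, with 4 at an unadjusted p under 0.05, while DESeq2 called Vip higher and Chat lower and limma on log2(TPM + 1) called 0. Vip was higher in every Pectin library than in any Inulin library, as were 12.5% of all genes, and Chat lower, as were 14.5%. Beside Chat, 8 of 9 tested tuft cell markers were negative, with a median of −0.84, and the list summed to 27.0 to 37.6 TPM in Pectin and 48.9 to 78.3 TPM in Inulin. Sh2d6, an adaptor of tuft cells, fell, at 5.79 ± 1.45 CPM in Pectin and 15.5 ± 3.16 CPM in Inulin (−1.42 ± 0.30 SE, adjusted p = 0.00512, and 0.0529 without Inulin replicate 1), while Ptgs1 of the same list rose (0.71 ± 0.21 SE, adjusted p = 0.0251, lost in 4 of 22 fits). In the smooth muscle list 12 of 12 genes were positive (median 0.69; 1020 to 2740 TPM in Pectin and 642 to 2550 TPM in Inulin) and in the fibroblast list 9 of 10 (median 0.95; 374 to 499 TPM in Pectin and 269 to 482 TPM in Inulin), with no call in either. The part of these cell types in the values of the members was not tested.

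In Pectin_PFOS against PFOS 7 of 8 members were negative, all but Ret, with a median of −0.86 against −0.03. None was called by edgeR, beside 16.0% of all genes, with 2 at an unadjusted p under 0.05, while DESeq2 and limma on log2(TPM + 1) each called S100b lower. S100b was lower in every Pectin_PFOS library than in any PFOS library, as were 14.5% of all genes. Fibroblast markers had 6 lower calls of 10 and 2 without Pectin_PFOS replicate 1, epithelial markers 5 higher calls of 10 and 1 without it, and of the 5 markers of interstitial cells of Cajal 4 fell and 1, Edn3, rose as given above. Without Pectin_PFOS replicate 1 the calls of Edn3 and of the channel Ano1 remained. Ano1 was at 8.08 ± 1.23 CPM in Pectin_PFOS and 20.2 ± 1.84 CPM in PFOS (−1.32 ± 0.30 SE, adjusted p = 0.00827). The higher epithelial values depended on the scaling. The median of the epithelial list was 0.62 with TMM and 0.23 with library totals alone, and limma on log2(TPM + 1) called 0 of its 10 genes. Its summed levels were 26000 to 34400 TPM in Pectin_PFOS and 29500 to 64100 TPM in PFOS. In Inulin_PFOS against PFOS 3 members were positive and 5 negative (median −0.10; 2 and 6 with library totals alone, where Chat changed sign), edgeR called 0 beside 2.64% of all genes, 1 member had an unadjusted p under 0.05, and DESeq2 and limma on log2(TPM + 1) called 0. In CPM, but not in TPM, Ret was the 1 member higher in every Inulin_PFOS library than in any PFOS library, as were 12.4% of all genes.

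PFOS added to inulin went with 7 of 8 positive values, all but Chat, in Inulin_PFOS against Inulin, with a median of 0.77 against −0.01. edgeR called 0 of 8, beside 0.159% of all genes, 1 had an unadjusted p under 0.05, and DESeq2 and limma called 0. In CPM, but not in TPM, S100b was higher in every Inulin_PFOS library than in any Inulin library, as were 12.2% of all genes. All 12 smooth muscle markers were positive (median 1.32; 1490 to 5560 TPM in Inulin_PFOS and 642 to 2550 TPM in Inulin), as were all 10 fibroblast markers (median 0.90). With the smooth muscle level as a covariate, 3 of 8 members were positive. With cellulose, PFOS against Control gave 6 of 8 negative values, with a median of −0.40 against −0.04. edgeR called none beside 0.0% of all genes, 1 member had an unadjusted p under 0.05 against 842 of all genes, and DESeq2 and limma called 0 members. The difference between these effects, the interaction of PFOS with inulin, was 2.19 ± 0.67 SE for Uchl1 (adjusted p = 0.115) and 1.64 ± 0.64 SE for S100b (adjusted p = 0.174). edgeR called 0 members there beside 0.0% of all genes, and 2 members reached an unadjusted p under 0.05, as did 3099 of all genes. DESeq2 called Uchl1 and limma called 0. All 12 smooth muscle markers were positive for this interaction (median 1.99, 10 at an unadjusted p under 0.05), as were all 10 fibroblast markers (median 1.37). With the smooth muscle level as a covariate the interaction was 0.49 for Uchl1 and 0.50 for S100b. The part of muscle and fibroblasts in the result was not tested. The interaction of PFOS with pectin ran from −0.84 ± 0.63 SE for Elavl4 (adjusted p = 0.593) to 0.18 ± 0.81 SE for Chat (adjusted p = 0.95). Of its values 3 were positive and 5 negative, with a median of −0.11. With library totals alone Chat, Ret and Uchl1 changed sign, so that 0 were positive and 8 negative, with a median of −0.475. This interaction had 0 calls among members, beside 0.0% of all genes, and 0 members at an unadjusted p under 0.05, and DESeq2 and limma called 0.

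In the remaining 3 comparisons edgeR, DESeq2 and limma on log2(TPM + 1) likewise called 0 members. Pectin against Control had 7 of 8 negative values (median −0.56), with 2 at an unadjusted p under 0.05 and 1.99% of all genes called. Its lowest values were −1.36 ± 0.59 SE for Chat (adjusted p = 0.219) and −1.14 ± 0.41 SE for S100b (adjusted p = 0.141). Pectin_PFOS against Inulin_PFOS had 8 of 8 negative values (median −0.85), from −1.26 ± 0.62 SE for Chat (adjusted p = 0.316) to −0.15 ± 0.35 SE for Ret (adjusted p = 0.865), with 1 at an unadjusted p under 0.05 against 2572 of all genes, and 0.0% of all genes called. All 12 smooth muscle markers (median −1.60; 444 to 1330 TPM in Pectin_PFOS and 1490 to 5560 TPM in Inulin_PFOS) and all 10 fibroblast markers (median −1.20) were negative too. With the smooth muscle level as a covariate 5 of the 8 members were positive and 3 negative. The PFOS effect averaged over the 3 diets ran from −0.58 ± 0.35 SE for Vip (adjusted p = 0.455) to 0.25 ± 0.20 SE for Ret (adjusted p = 0.577), with a median of 0.03, and of −0.01 with library totals alone, with 0 members at an unadjusted p under 0.05 and 0.159% of all genes called. Comparisons that share a group are not independent of each other.

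**Figure D2:**
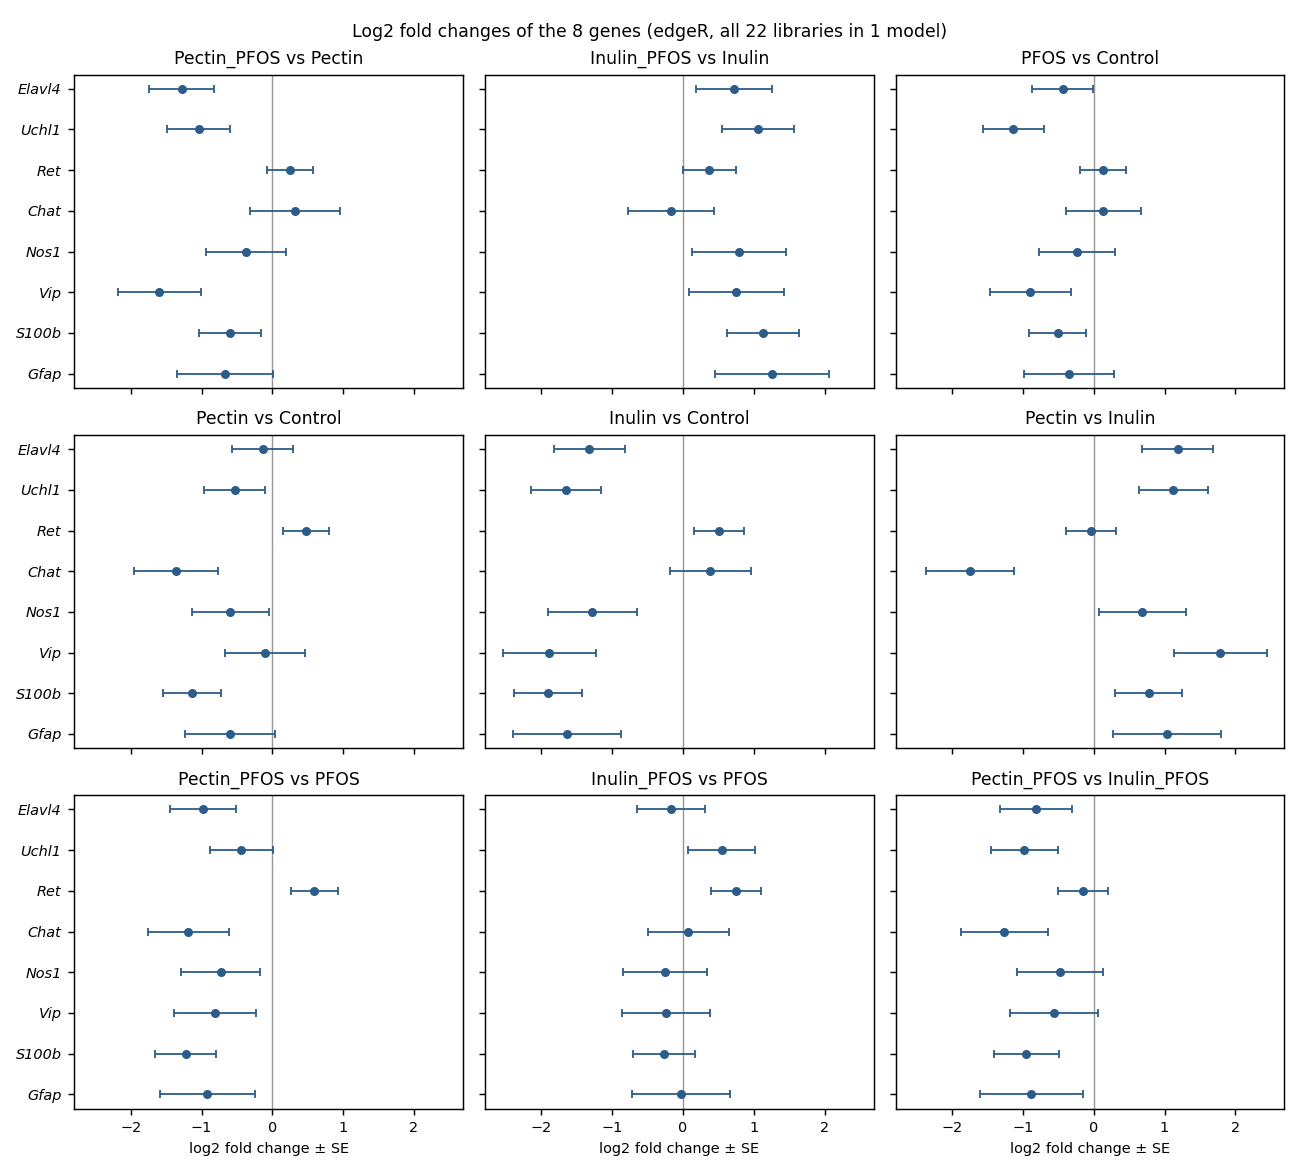
Log2 fold changes of the 8 genes in the 9 comparisons of 2 groups, first group over second, from 1 edgeR model of all 22 libraries, with bars of 1 SE. Elavl4, Uchl1, Nos1, Vip, S100b and Gfap lie left of 0 in Inulin vs Control and right of 0 in Inulin_PFOS vs Inulin and Pectin vs Inulin, Ret lies near 0 or right of it, and no value was called.

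Across the 22 libraries, members followed the smooth muscle level, the mean log2 CPM of 12 smooth muscle markers, to different degrees. Pearson's r was 0.85 for Uchl1 (Spearman's rho 0.875) and 0.80 for Gfap (rho 0.689), each with a permutation p of 1e-05 for r, the smallest that 100000 permutations can give. It was 0.74 for S100b (p = 0.00016, rho 0.695, p = 0.0005), 0.66 for Vip (p = 0.001, rho 0.652, p = 0.0013), 0.65 for Elavl4 (p = 0.0012, rho 0.571, p = 0.0065) and 0.56 for Nos1 (p = 0.0069, rho 0.421, p = 0.052). For the rhos of Uchl1 and Gfap p was 1e-05 and 0.00056. Adjusted over the 40 relations of 8 members with 5 marker lists, p for r was 0.0002, 0.0002, 0.0012, 0.0039, 0.0039 and 0.017 in that order of genes. Ret and Chat showed no relation that passed, with r of −0.18 (p = 0.43, rho −0.181, p = 0.42) and 0.19 (p = 0.39, rho 0.134, p = 0.55). Without the 2 libraries farthest from the median muscle level, Control replicate 2 and Pectin_PFOS replicate 1, r was 0.786 for Uchl1, 0.71 for Gfap, 0.617 for S100b, 0.588 for Elavl4, 0.483 for Nos1 and 0.411 for Vip, so that the relation of Vip no longer passed (adjusted p = 0.095). With values centred within each group r was 0.848 for Uchl1, 0.782 for Gfap, 0.692 for S100b and 0.57 for Vip, while 0.486 for Elavl4 and 0.465 for Nos1 no longer passed (permutation p adjusted over the 8 members 0.062 for both). On log2(TPM + 1) Elavl4, at 0.436, and Nos1, at 0.461, did not pass either (adjusted p 0.055 and 0.051). Member and marker levels come from the same libraries and the same scaling. The labels name no batch within which the relation could be repeated.

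**Figure D3:**
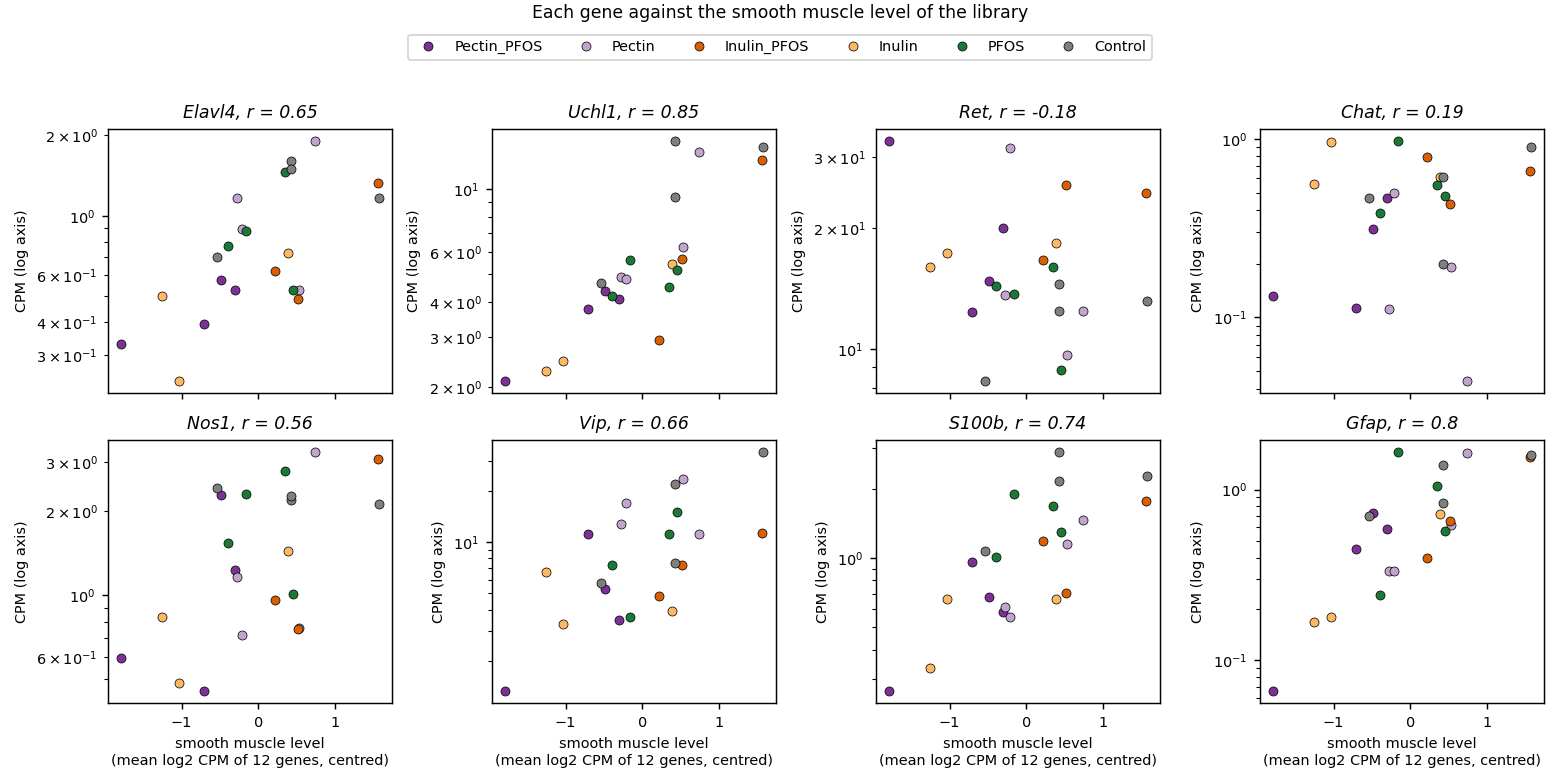
CPM of each of the 8 genes (vertical, log axis) against the mean log2 CPM of 12 smooth muscle markers, centred on its mean (horizontal), 1 point per library, coloured by group. Points rise together for Uchl1 (r 0.85), Gfap (r 0.80) and S100b (r 0.74) and not for Ret (r −0.18) or Chat (r 0.19).

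A fit with the smooth muscle level as a covariate called 0 of 8 members in the 12 comparisons, and it turned the sign of some values. In Inulin_PFOS against Inulin, where 7 of 8 members had been positive, 3 were positive with it. Uchl1 was at −0.20 with the covariate and 1.06 without it, Vip at −0.55 and 0.75, Gfap at −0.24 and 1.25, and Nos1 at −0.15 and 0.79. With the covariate 3 members were negative in Pectin_PFOS against Pectin, and 6 without it, as Nos1, S100b and Gfap turned positive. In Pectin_PFOS against Inulin_PFOS Elavl4, Uchl1, Nos1, Vip and Gfap turned positive. Nos1, Vip and Gfap turned negative in the interaction of PFOS with inulin. Nos1, S100b and Gfap turned positive in the interaction with pectin. In 5 further comparisons 1 or 2 members changed sign, and in Inulin against Control and the averaged PFOS effect none did. In Pectin_PFOS against Pectin the log2 fold change of Uchl1 was −0.13 with the covariate and −1.04 without it, and that of Vip −0.93 and −1.60. In Inulin against Control S100b stood at −1.24 with the covariate and −1.91 without it, and Uchl1 at −0.75 and −1.65. Chat in Pectin against Inulin was at −1.87 with the covariate and −1.75 without it. The covariate is itself measured in these libraries and differs between groups.

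Markers of other cell types also ran with members, those of fibroblasts and of the epithelium with several. These lists, unlike that of smooth muscle, were chosen after seeing the data, so their p-values are given as a description. The permutations behind them ran across the groups, and no p was computed within groups. Vip followed the fibroblast level more closely than the muscle level, with r 0.85 (permutation p = 2e-05, rho 0.875, p = 1e-05, adjusted p over 40 relations for r 0.00027), 0.769 without Control replicate 4 and Pectin_PFOS replicate 1, and 0.836 within groups. Whether its 2 correlations differ was not tested. The fibroblast level also ran with Uchl1 (r 0.69), S100b (0.68), Elavl4 (0.65) and Gfap (0.56). Their permutation p for r, adjusted over 40 relations, was 0.0024, 0.0024, 0.0039 and 0.017. By rho that of Gfap did not pass (adjusted p 0.12). Within groups r was 0.425, 0.313, 0.221 and 0.306 in that order. Nos1, Ret and Chat did not pass with fibroblasts. Chat followed the tuft cell level, with r 0.72 (permutation p = 0.00014, rho 0.741, p = 0.00016, adjusted p 0.0012), 0.83 without Inulin_PFOS replicate 1 and PFOS replicate 2, and 0.626 within groups. Ret followed the epithelial level, with r 0.60 (permutation p = 0.0031, rho 0.591, p = 0.0046, adjusted p 0.0089), 0.462 without Control replicate 4 and Pectin_PFOS replicate 1, and 0.432 within groups. The other members had negative r with the epithelial level, from −0.72 for Elavl4 (p = 0.00018, rho −0.652, p = 0.0013) to −0.07 for Chat (p = 0.76, rho −0.053, p = 0.82), and 6 of those 7 passed at an adjusted p under 0.05. By rho those of Uchl1, Gfap and Vip did not pass (permutation p adjusted over 40 relations 0.062, 0.062 and 0.14). Without Control replicate 4 and Pectin_PFOS replicate 1 r with the epithelial level was −0.644 for Elavl4, −0.636 for Nos1 and −0.45 for S100b. It was −0.40 for Gfap, −0.335 for Uchl1, −0.172 for Vip and 0.186 for Chat. On log2 TPM these relations were weaker, at −0.259 for Elavl4, −0.263 for Uchl1, −0.433 for Vip, −0.089 for S100b, 0.069 for Nos1 and 0.0083 for Gfap. Of the 8 relations with enteroendocrine markers that of Nos1 passed, with r −0.54 (permutation p = 0.011, rho −0.542, p = 0.011, adjusted p over 40 relations 0.025) and −0.481 without Control replicate 3 and Pectin replicate 3. It did not pass when adjusted over the 8 relations of that list (0.09), and r was −0.025 on log2 TPM.

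**Figure D4:**
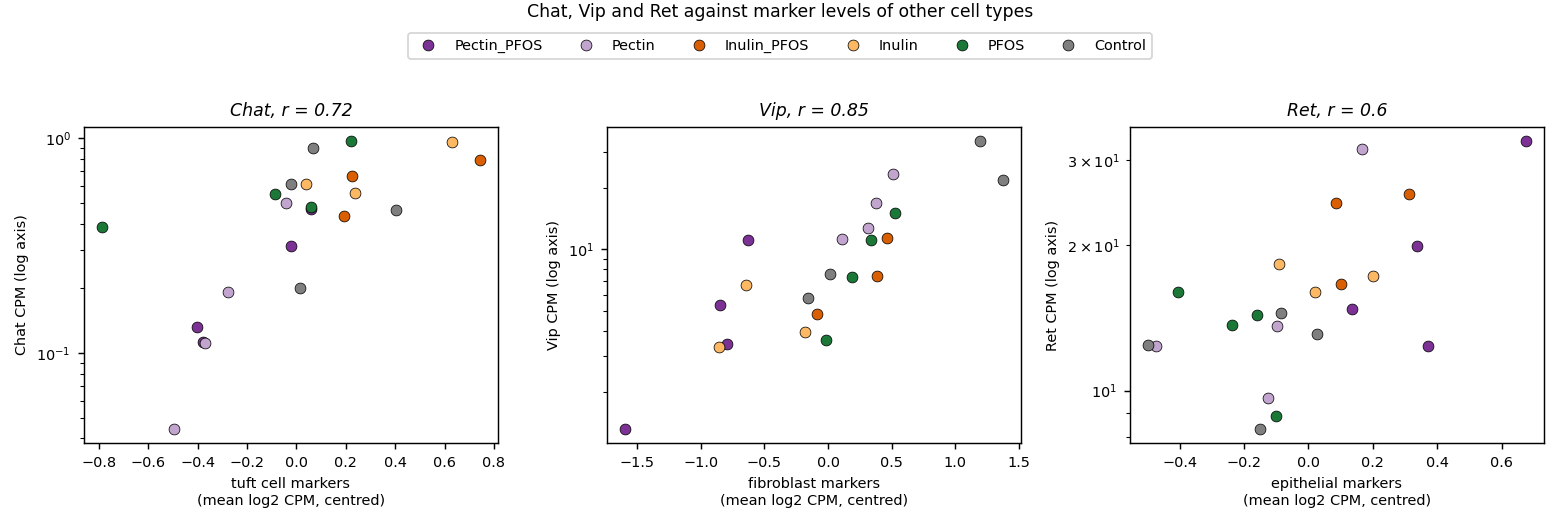
CPM (vertical, log axis) of Chat against the tuft cell level, of Vip against the fibroblast level and of Ret against the epithelial level, each level a mean log2 CPM of its marker list centred on its mean, 1 point per library, coloured by group. The 3 relations, with lists chosen after seeing the data, have r of 0.72, 0.85 and 0.60 over 22 libraries.

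Between members, 13 of 28 pairs had a correlation with an adjusted p under 0.05, all 13 among Elavl4, Uchl1, Nos1, Vip, S100b and Gfap. The closest pairs were Uchl1 with Gfap (r 0.849, permutation p = 1e-05, rho 0.787, p = 6e-05, 0.824 without Control replicates 2 and 3), S100b with Gfap (r 0.82, p = 2e-05, rho 0.79, p = 2e-05, 0.753 without Control replicate 3 and Pectin_PFOS replicate 1) and Elavl4 with Nos1 (r 0.81, p = 1e-05, rho 0.772, p = 4e-05, 0.745 without Inulin replicate 1 and Pectin replicate 4). Their p for r adjusted over the 28 pairs was 0.00014, 0.00017 and 0.00014. The permutations ran across the groups, so differences between group means enter these values, and no p was computed within groups. With values centred within each group r was 0.831, 0.77 and 0.805 for these pairs. Among the 13 pairs, r of Vip with Elavl4, Uchl1 and S100b was 0.508, 0.598 and 0.519, and 0.092, 0.324 and 0.332 within groups. Vip and Nos1, which inhibitory motor neurons of the gut can hold together, had r of 0.213 (p = 0.34, rho 0.147, p = 0.51, 0.189 without Inulin replicate 1 and Pectin_PFOS replicate 3). Ret had r from −0.47 with S100b (p = 0.027, rho −0.468, p = 0.029, adjusted p 0.055) to 0.102 with Chat (p = 0.65, rho 0.247, p = 0.27), and without Pectin replicate 3 and Pectin_PFOS replicate 1 these were −0.242 and 0.297.

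**Figure D5:**
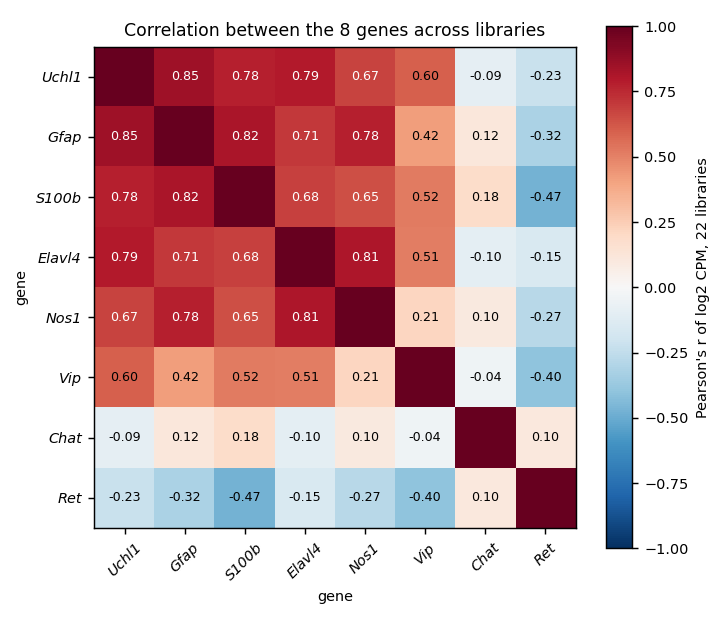
Pearson's r of log2 CPM over 22 libraries for each pair of the 8 genes, on a colour scale from −1 (blue) to 1 (red). Uchl1, Gfap, S100b, Elavl4 and Nos1 form a block of positive values between 0.65 and 0.85, Vip lies between 0.21 and 0.60 with them, and Chat and Ret lie apart.

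As a description, the 5 genes with the highest r to each member were taken from 12566 genes with a symbol and a mean of at least 1 CPM. For Uchl1 these were Tubb3 (0.936), Calb2 (0.936), Nap1l5 (0.931), Mustn1 (0.923) and Ckb (0.92), of which Tubb3 and Calb2, a calcium-binding protein, are known from neurons and Ckb is on the smooth muscle list. For Nos1 they included Kif1a (0.885), Pnmal2 (0.875), Pirt (0.872) and Sox10 (0.841), of which Sox10 is a transcription factor of enteric glia. Elavl4 was nearest to Sult4a1 (0.892), P2rx6 (0.873), Stmn2 (0.87), Snap25 (0.864) and Pls3 (0.856). S100b was nearest to Klhdc8b (0.909), Psd (0.906), Syngr1 (0.899), B4galt2 (0.89) and Smarcd3 (0.89), and Gfap to Syngr1 (0.896), Gpr37l1 (0.872), Fam171a2 (0.87), Pth1r (0.868) and Olfm1 (0.866), so that Syngr1, a synaptic vesicle protein, was near to both glial members. Vip had Stbd1 (0.897), Rcn1 (0.876), Tbc1d19 (0.875), Mgl2 (0.874) and Smoc2 (0.863), none of them on the neuronal lists. Chat had Sh2d6 (0.784), Cyb5d1 (0.754), Ccnj (0.736), Cpne1 (0.735) and Ehbp1l1 (0.728), headed by the tuft cell gene Sh2d6. Ret had Lgmn (0.857), Dirc2 (0.844), Kazn (0.822), Igsf5 (0.816) and Helb (0.804), of which Lgmn is a lysosomal protease. These genes were picked as the highest of 12566, so the size of r is set by that choice.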

How the data were processed

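The authors deposited 2 tables of the same 22 libraries and 46603 genes, expected counts per gene and TPM. Per the labels' protocols, RNA was column-purified and sequenced by BGI from stranded DNBSEQ libraries. HISAT, Bowtie2 and GRCm39 are named in the submitters' processing notes, with no roles. The coordinates in the files are those of GRCm38: of 46091 genes shared with GENCODE M21, 38946 have the same start and end. The counting program is not given in the sources used here. The deposited counts, of which 3.84% to 4.85% per library are fractional, were rounded, and TPM was used as deposited.

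Counts were scaled by TMM and tested with edgeR 4.0.16 (R 4.3.3) in a model with 1 mean per group over all 22 libraries. filterByExpr at its defaults left 15763 genes, and p-values were adjusted over them by Benjamini-Hochberg. The test was run on simulated data for Inulin against Control and Pectin_PFOS against PFOS, with changes put only into genes of at least 1 CPM. That run did not cover members as low as Elavl4, Gfap and Chat (median 0.710, 0.636 and 0.474 CPM). Alternatives used DESeq2 1.42.0 and limma 3.58.1. Correlations used log2 CPM with a prior count of 2 and 100000 permutations, two-sided, in Python 3.11.15.

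Members and gene lists were chosen with earlier results of these data known. The rule for naming took all 8 members in every comparison, given by counts and ranges where not singly, from each further list up to 4 genes per comparison by smallest p (those called, or 2 where none was), and for each member the 5 genes with the highest r, leaving out predicted gene models. Gucy1a3 and Gucy1b3 are the files' older symbols of Gucy1a1 and Gucy1b1. No pair of libraries was a duplicate: the closest, Pectin_PFOS replicates 3 and 4, differed by a chi-square of 29.0 per gene. Replicate numbers were not taken to pair the libraries. Of same-numbered pairs 14 of 51 deviated together with r above 0.1, with a median r of 0.030. Of differently numbered pairs 31 of 150 did, with a median r of −0.022. Intervals of TPM and CPM were not computed, and depth bears most on Chat and also on Gfap, Elavl4, S100b and Nos1. Not every gene that met the last part of that rule is reported here.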

Additional observations from a re-analysis of the deposited data

Results flagged for a closer look

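In the groups of 4 libraries, the distance of the highest and the lowest library from the rest was examined for each of the 8 genes in TPM, in 32 groups in all, of which chance flags about 1 in 20. 1 was flagged. Ret was at 2.42 TPM in PFOS replicate 4, the lowest of its group, with a gap to its nearest neighbour of 0.83 of the group's range. In CPM the same library was also the lowest of the 4, at 8.86. Without it the log2 fold change of Ret in PFOS against Control was 0.32, against 0.13 with it. The groups of 3 libraries were not examined.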

How the results depend on the processing

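34 alternatives and omissions gave 3143 values for the 8 genes, of which 43 passed an adjusted p of 0.05 and 137 had the opposite sign of the reported value, none of them called. 9 pairs of a gene and a comparison were called somewhere, in 5 comparisons where edgeR had called 0. DESeq2 called 3 in Inulin against Control (Uchl1, Vip and S100b lower), 2 in Pectin_PFOS against Pectin (Elavl4 and Vip lower), 2 in Pectin against Inulin (Vip higher, Chat lower), 1 in Pectin_PFOS against PFOS (S100b lower) and 1 in the interaction of PFOS with inulin (Uchl1). Library totals alone called 2 in Pectin_PFOS against Pectin and 1 in Pectin_PFOS against PFOS, and moved the median of all genes there to −0.27 and −0.41. Over all genes, DESeq2 called 790 of 25440 in Inulin against Control, where edgeR called 0 of 15763, and library totals alone called 141 higher and 858 lower in Inulin_PFOS against PFOS, where TMM gave 290 and 126. Limma on log2(TPM + 1), with and without a filter, called 1 in Pectin_PFOS against PFOS, and limma on log2(TPM + 0.1) called 1 there and 1 in Pectin_PFOS against Pectin. A fit of only the groups compared called 1, Vip, in Pectin_PFOS against Pectin and in Pectin against Inulin. The replicate block called the same 1 gene in the same 2 comparisons, and a block by title number called 2 in Pectin_PFOS against Pectin, although the numbers were not taken to pair the libraries. With size factors, other filters or the smooth muscle covariate the counts were 0. Leaving out 1 library gave 0 to 2 in Inulin against Control (2 without Control replicate 1, 1 without Pectin_PFOS replicate 1) and in Pectin_PFOS against Pectin (2 without Control replicate 1), and 0 to 1 in Pectin_PFOS against PFOS, Pectin against Inulin and the interaction with inulin. In the other 7 comparisons the count was 0 throughout. Of the 8 relations with smooth muscle, 6 passed when adjusted over the 8, as they did without each library. Fibroblast markers gave 5, epithelial markers 7, tuft cell markers 1 and enteroendocrine markers 0, lists chosen after seeing the data. The relations numbered 4 in log2 TPM, 5 without 2 libraries and 4 within groups. The causes were not tested. The depth, 1 to 21 reads per library for Chat, limits the genes of low level most.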
